A study of Mus musculus with 49 samples.

Results

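MLT1 elements are the oldest branch of the mammalian apparent LTR retrotransposons (MaLR), and 145 single MLT1 insertions were detected often enough in single late 2-cell mouse embryos to be described here. The insertions were taken by name from the tables that count reads per single transposable element (TE) copy. A copy was kept when its name started with MLT1 or MST, its class was ERVL-MaLR:LTR, and at least 25% of the TBP LOF and CONTROL embryos with 500000 counted reads or more held at least 1 of its reads, which is 5 of 18 embryos. The tables listed 85678 MLT1 copies in 60 families among 3864699 TE copies, and 0 copies whose name started with MST, so each of the 145 was an MLT1 copy. In the same embryos 40760 TE copies passed the same filter.

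MaLR elements are retrotransposons without proteins of their own, which spread with the enzymes of ERVL retroviruses. A complete copy has an internal part (named here with the ending -int) between a pair of long terminal repeats (LTRs), and the LTR holds the promoter. MLT1 copies spread in early placental mammals and are shared by mice and humans, with the letters A to O running roughly from younger to older, whereas the ORR1 and MT families of MaLR are younger and belong to rodents. TBP is the TATA-binding protein, which places the transcription machinery at core promoters, and FOXJ3 is a forkhead transcription factor.

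Embryos were F1(C57BL/6JxCBA/H). Zygotes were injected with an antibody to TBP (TBP LOF, 9 embryos) or with mouse IgG (CONTROL, 10 embryos), and in a separate experiment with an antibody to FOXJ3 (FOXJ3 LOF, 17 embryos) or rabbit IgG (CONTROL, 13 embryos). All received Trim21 mRNA 4 h later, which triggers degradation of a protein bound by the antibody (Trim-Away), and were collected 48 h after hCG. The antibody acts on protein, so the mRNA of the targeted gene checks no label. Each embryo was 1 library of Smart-seq+5', in which reads from transcript 5' ends are separated from internal fragments, and only the 5' end reads were counted. 

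CONTROL embryo 7 had 459162 counted reads and was left out. The 18 others held between 1148892 and 5425733 counted reads in the table of single copies. The 2-cell markers Zscan4d, Zfp352 and MERVL-int had reads in 18 of 18 embryos and Zscan4c in 17, the later markers Cdx2 and Sox17 in 2 and Nanog in 8, while Gata4, another marker of later stages, had reads in 18. TBP LOF embryos 7 and 11 stood apart from the rest. ERCC spike-in RNA made up 6.12% and 6.03% of their reads, against at most 4.62% in the other embryos, and they held reads on 145 and 144 MLT1 copies, against at least 226 elsewhere. In bulk RNA of a whole embryo, fewer transcribing cells and less RNA per cell cannot be told apart.

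Few MLT1 copies had reads at this stage. Of the 85678 annotated copies, 3371 (3.93%) had a read in any of the 18 embryos, 2586 of them in 1 embryo alone, and the 145 kept copies were 0.169% of those annotated. The 145 copies held 6606 of the 14302 MLT1 reads, or 46.2%, and the rest fell on 3226 copies left out. Reads per copy ran from 5 to 715 with a median of 20, and the 3, 10 and 20 copies with the most reads held 26.3%, 45.1% and 58.6% of the 6606 reads. 5 copies had reads in each of the 18 embryos and 103 in 5 to 9 embryos.

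At the edge of the filter, 47 copies had reads in exactly 5 embryos, with a median of 10 reads, and 68 copies left out had reads in 4 embryos, with a median of 8. A copy with reads in 1 group alone could pass only by being present there, so the counts over the kept copies below describe these copies and not MLT1 as a whole. Of the 145, 138 were LTRs and 7 were internal parts, and they came from 32 families, with 18 copies each from MLT1D and MLT1B, 12 from MLT1A1, 11 from MLT1C and 10 from MLT1K. The copy names carry no coordinates, so position, host gene and sequence of the insertions were not analysed here.

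In TBP LOF embryos 47 to 76 of the 145 copies had a read (median 63), and in CONTROL embryos 62 to 83 (median 75). Levels were compared as normalized counts, which are reads divided by a size factor from the ERCC spike-ins, so that they follow RNA per embryo. On this scale the copies summed to 110 normalized counts in the lowest TBP LOF embryo, 282 in the median and 491 in the highest, and to 272, 364 and 477 in CONTROL embryos. The means were 300.4 ± 108 and 381 ± 79.0 (SD, n = 9 each). The groups overlapped, with TBP LOF embryos 7 and 11 below and TBP LOF embryo 8 above every CONTROL embryo. The log2 ratio of the means was -0.34, and -0.17 without TBP LOF embryos 7 and 11, beside an SD of 0.31 among CONTROL embryos on the log2 scale. Summed over all MLT1 copies, kept or not, the means lay further apart, at 628 ± 237 in TBP LOF and 974 ± 220 in CONTROL (SD). The ranges overlapped there too, at 225 to 965 and 544 to 1342. Among the 145, the 2 copies with the most reads went the other way, with summed means of 74.9 in TBP LOF and 42.7 in CONTROL. Without this pair the means were 225.5 ± 93.9 and 338.3 ± 64.9 (SD). As a share of counted reads the order of the groups turned for the 145 copies. They had 105 to 224 rpm (reads per 1000000 counted reads) in TBP LOF (median 206) and 124 to 213 rpm in CONTROL (median 160). ERCC made up 2.67% to 6.12% of reads in TBP LOF embryos (median 4.38%) and 2.22% to 3.25% in CONTROL embryos (median 2.82%). Its part in this turn was not tested. The 2 copies with the most reads held a median of 25.1% of the reads of the 145 in TBP LOF and 10.3% in CONTROL. All MLT1 copies together held a median of 0.170% of the reads on TE copies in TBP LOF and 0.200% in CONTROL.

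**Figure D1:**
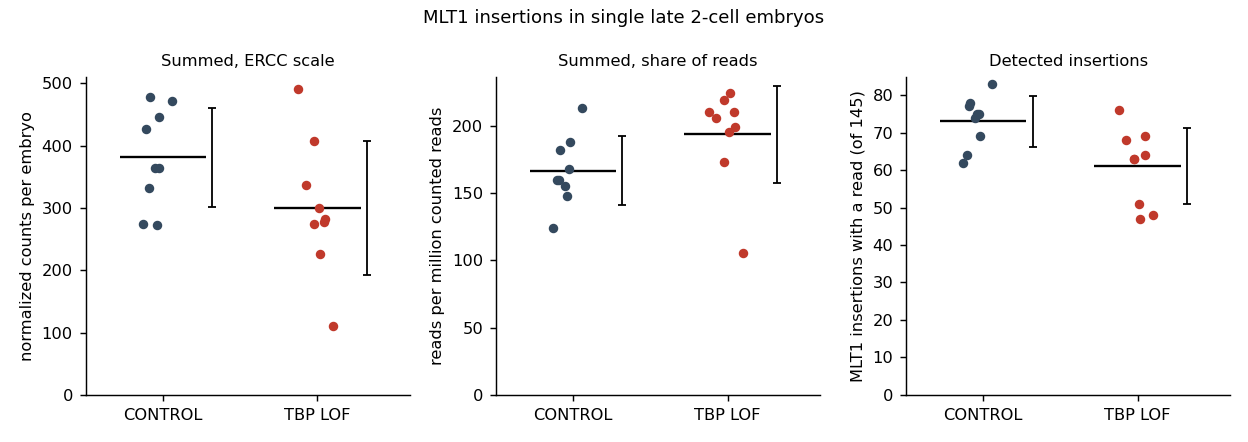
Summed level of the 145 MLT1 insertions per embryo as ERCC-normalized counts (left) and as rpm (middle), and the number of insertions with a read (right), in 9 CONTROL and 9 TBP LOF embryos. Points are embryos, horizontal lines are means and bars are SD. The group means were 381 and 300.4 normalized counts on the left, and the order turned in the middle panel.

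Between TBP LOF and CONTROL embryos 20 of the 145 MLT1 copies were called lower and 3 higher (edgeR quasi-likelihood test, Benjamini-Hochberg adjusted p under 0.05 over 59207 genes and TE copies). The background was 14.6% of the genes and TE copies called lower and 0.76% called higher, or 11.6% and 0.844% of TE copies alone, and the MLT1 shares were 13.8% and 2.07%, the share lower being near the background in this fit. Of the 20 copies called lower 17 had reads in at least 5 CONTROL embryos and in under 5 TBP LOF embryos, and of the 3 called higher 2 had the reverse, so that they met the filter through the group where they were high, as did 37 of the 122 not called. Their fold changes and p are given below as a description of copies chosen this way. The median log2 fold change was -0.52 over the 145 copies and -0.69 over all features tested. With copies at 0 in a group set to their fold over a floor of 3 reads, the median was -0.52 as well. These values stay on the same side of the median, so it could not move. By TMM scaling, which assumes that most features do not change, the median of all features moved to -0.06, that of MLT1 to 0.22, and the calls to 11 lower and 3 higher (7.59% and 2.07%, against 6.76% and 2.63% of all features). Without TBP LOF embryos 7 and 11, where 190 MLT1 copies passed the filter, 6 were called lower, each of them among the 20, and 4 higher. These were 3.16% and 2.11%, against 6.97% and 0.617% of all features, and the differences between these shares were not tested. DESeq2 gave 85 of the 145 copies an adjusted p, and of these 11 were lower (12.9%) and 1 higher (1.18%), against 19.2% and 0.704% of all features with an adjusted p. The MLT1 median lay above that of all features by ERCC and TMM scaling and in 17 of 18 fits without 1 embryo. It lay below without TBP LOF embryo 8, at -0.86 against -0.79, and without TBP LOF embryos 7 and 11, at -0.72 over the 190 copies against -0.53, while 144 of the 145 copies had -0.39 there.

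**Figure D2:**
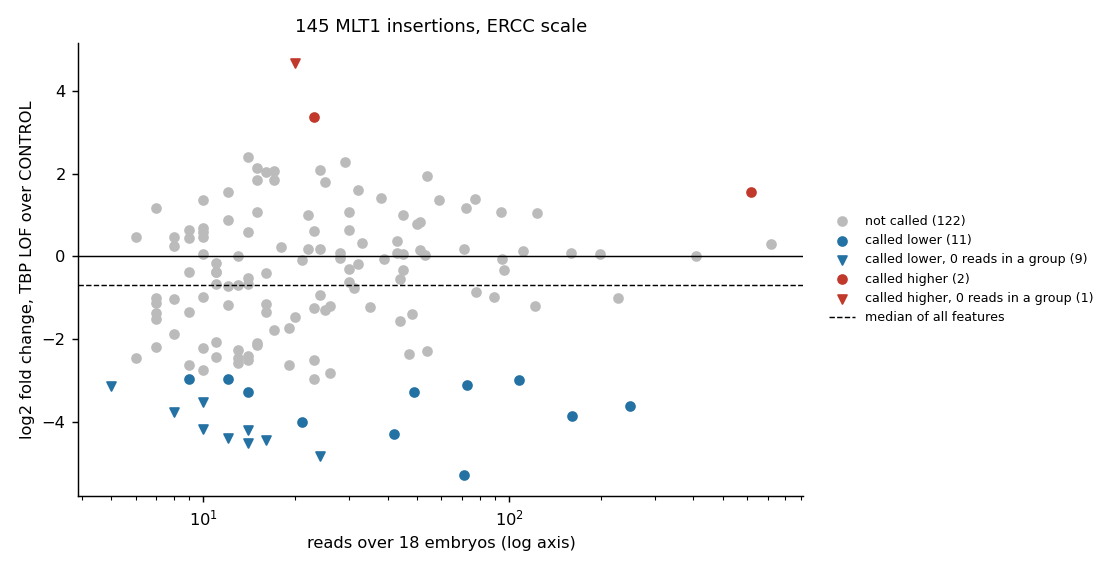
Log2 fold change of each of the 145 MLT1 insertions, TBP LOF over CONTROL on the ERCC scale, against its reads over 18 embryos (log axis). Blue marks the 20 copies called lower, red the 3 called higher, and triangles the copies with 0 reads in 1 group, whose fitted value is no bound. The dashed line is the median of all features tested, -0.69.

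The copy with the most reads was MLT1H1_dup761, with 715 reads. Its normalized counts were 17.2 in the lowest TBP LOF embryo, 34.9 in the median and 68.8 in the highest, and 6.78, 21.6 and 66.0 in CONTROL embryos. The ranges overlapped, with 3 CONTROL embryos below every TBP LOF embryo and 1 TBP LOF embryo above every CONTROL embryo, and the log2 fold change was 0.29 ± 0.48 (SE, adjusted p = 0.754). Among the 144 other copies, the levels of MLT1C_dup1643, MLT1E1A_dup760 and MLT1B_dup8765 were most like it over the 9 CONTROL embryos (Pearson r = 0.71, 0.65 and 0.62 on log2 values), while the median r of the 144 was 0.08. MLT1E1A_dup760 had 3 reads in CONTROL embryos, so its r rests on single reads. These are the highest of many values from few embryos that share library depth and scaling.

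MLT1B_dup8002, with 409 reads, overlapped between the groups over nearly the whole range. It ran from 5.53 to 28.6 normalized counts in TBP LOF (median 20.3) and from 3.61 to 35.2 in CONTROL (median 24.3), with the log2 fold change at 0.01 ± 0.47 (SE, adjusted p = 0.993). Of the 12 copies with the highest mean normalized counts, the others that were not called were MLT1H1_dup622, MLT1B_dup899, MLT1K_dup698, MLT1B_dup3093, MLT1F_dup514 and MLT1B_dup6315, with log2 fold changes from -1.20 to 0.14 and adjusted p from 0.299 to 0.973. MLT1K_dup698 was uneven among embryos, at 0 to 31.0 normalized counts in TBP LOF and 0 to 23.0 in CONTROL, with reads in 7 embryos of each group. MLT1A_dup388, named after its values were seen, had a lower mean level but 123 reads and lay above the CONTROL median in 8 of 9 TBP LOF embryos, with the log2 fold change at 1.06 ± 0.69 (SE, adjusted p = 0.346).

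MLT1E2_dup671, second in reads with 616, was higher in TBP LOF. Its normalized counts were 6.14 in the lowest, 36.9 in the median and 64.5 in the highest TBP LOF embryo, and 3.61, 9.65 and 29.8 in CONTROL embryos. In 8 of 9 TBP LOF embryos it lay above the CONTROL median and in 6 above the highest CONTROL embryo, and TBP LOF embryos 1, 7 and 10 lay within the CONTROL range. The log2 fold change was 1.55 ± 0.49 (SE, adjusted p = 0.0319). The sign was the same in 24 of 24 alternatives and the call was kept in 15. Among these were TMM scaling (log2 fold change 2.20, adjusted p = 0.0101) and DESeq2 (1.54, adjusted p = 0.00772). The call lay near the threshold and was lost without CONTROL embryo 3, 4, 5, 8 or 10 or TBP LOF embryo 6 or 9. The adjusted p there was 0.050 to 0.061, with log2 fold changes of 1.42 to 1.49. The call was also lost without a filter and with the replicate number as a block, at an adjusted p of up to 0.125.

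A pair of copies with few reads was higher as well. MLT1D_dup8329 had reads in 8 of 9 TBP LOF embryos, up to 4.59 normalized counts with a median of 1.59, and in 1 of 9 CONTROL embryos, at 0.339 (log2 fold change 3.36 ± 0.94, adjusted p = 0.0155). MLT1G3_dup701 had 20 reads in 5 TBP LOF embryos, up to 12.7 normalized counts with a median of 1.45, and 0 in CONTROL embryos. Both copies met the filter through TBP LOF alone, so their values describe copies chosen by it. MLT1G3_dup701, with 0 reads in CONTROL, had to differ to pass. Set against 3 reads pooled over the 9 CONTROL embryos and their summed size factors, the TBP LOF mean of MLT1G3_dup701 was 7.75-fold higher. This is a rough value and no strict bound. DESeq2 gave MLT1D_dup8329 no adjusted p and did not call MLT1G3_dup701. Both calls were lost with the replicate number as a block, and that of MLT1D_dup8329 also without a filter.

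Among copies called lower, MLT1D_dup5837 was the one in which the groups did not overlap. Its normalized counts were 0 to 3.45 in TBP LOF embryos (median 2.20) and 5.42 to 40.8 in CONTROL embryos (median 23.3). Each TBP LOF embryo lay below each CONTROL embryo, which held for 2.71% of all features tested and for 1 of the 145 copies. The log2 fold change was -3.62 ± 0.78 (SE, adjusted p = 0.00272), and the copy was called lower under each of the 25 other settings that tested it.

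MLT1O_dup206 and MLT1N2_dup658, from lettered families at the old end of MLT1, were lower too. MLT1O_dup206 had 0 to 3.28 normalized counts in TBP LOF (median 0) and 0 to 54.2 in CONTROL (median 8.68), with the log2 fold change at -3.85 ± 0.97 (SE, adjusted p = 0.00859). MLT1N2_dup658 had a single read in TBP LOF, in embryo 6 at 1.21 normalized counts, and 0 to 24.2 in CONTROL (median 5.94) (log2 fold change -5.29 ± 1.07, adjusted p = 0.00163). In both copies 7 of 9 CONTROL embryos exceeded every TBP LOF embryo, and 2 CONTROL embryos had 0 reads. Both met the filter through CONTROL alone. MLT1O_dup206 missed the threshold by TMM scaling (adjusted p = 0.051).

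MLT1A1_dup4147, of a family at the young end, had 0 to 6.73 normalized counts in TBP LOF (median 0) and 1.81 to 34.9 in CONTROL (median 9.50). It had reads in 3 of 9 TBP LOF and 9 of 9 CONTROL embryos, with the log2 fold change at -2.99 ± 0.94 (SE, adjusted p = 0.0309). The call was lost without TBP LOF embryo 7 (adjusted p = 0.0524) or CONTROL embryo 10 (adjusted p = 0.0821). By TMM scaling it was lost as well (log2 fold change -2.30, adjusted p = 0.111). Without 1 embryo the log2 fold change ran from -4.23 to -2.53. This copy, too, met the filter through CONTROL alone.

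MLT1H1_dup251 and MLT1A1_dup100 had reads in 2 and 1 TBP LOF embryos and in 8 and 7 CONTROL embryos, with CONTROL medians of 4.03 and 3.47 normalized counts (log2 fold changes -4.29 ± 1.03 and -4.01 ± 1.09, adjusted p = 0.00596 and 0.0134). Both met the filter through CONTROL alone, so these values describe copies chosen by it. Both calls were lost with the replicate number as a block (edgeR, adjusted p = 0.0897 and 0.279). MLT1H1_dup251 belongs to the same family as MLT1H1_dup761, whose log2 fold change was 0.29.

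**Figure D3:**
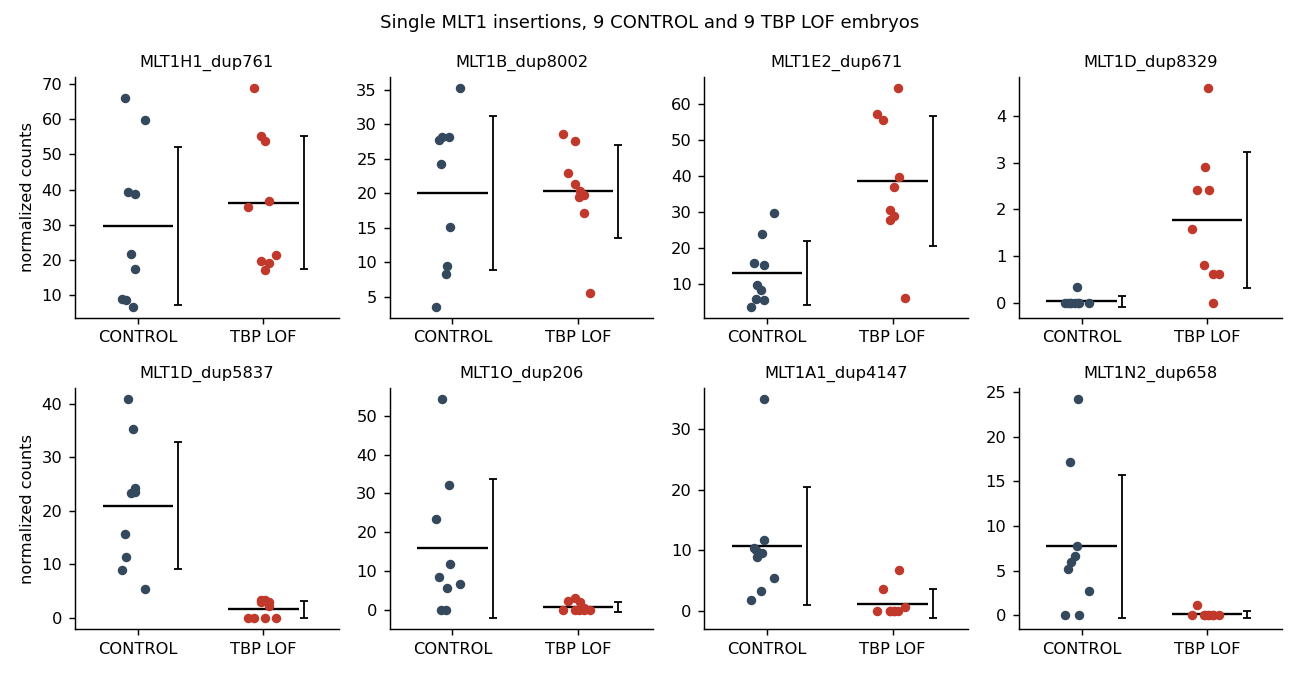
ERCC-normalized counts of 8 MLT1 insertions in 9 CONTROL and 9 TBP LOF embryos. Points are embryos, horizontal lines are means and bars are SD. MLT1H1_dup761 and MLT1B_dup8002 overlap between the groups, MLT1E2_dup671 and MLT1D_dup8329 are higher in TBP LOF, and the 4 copies of the lower panels are lower, MLT1D_dup5837 without overlap.

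Of the 20 copies called lower, 9 had 0 reads in the 9 TBP LOF embryos. With reads in CONTROL alone, they had to differ to pass the filter. Set against 3 reads pooled over the TBP LOF embryos and their summed size factors (0.231 normalized counts), their CONTROL means were 3.81-fold to 12.3-fold higher. The CONTROL means enter without their error, and 3 reads would weigh more in an embryo with a small size factor. These folds are therefore rough values and no strict bounds. The copy with the highest fold was MLT1D_dup1870, which had 24 reads in 6 CONTROL embryos, up to 7.22 normalized counts. MLT1H_dup546 had 14 reads in 6 CONTROL embryos, with a fold of 7.78. MLT1D_dup4869, MLT1D_dup3363 and MLT1F1_dup898 had 16, 14 and 10 reads in 5 CONTROL embryos each, with folds of 9.24, 9.99 and 4.71. DESeq2 gave 14 of the 20 an adjusted p and called 9 of them lower. It called MLT1D_dup1870 (adjusted p = 0.00967) but not MLT1D_dup4869 or MLT1D_dup3363 (adjusted p = 0.0741 and 0.0720). MLT1H_dup546 and MLT1F1_dup898 got no adjusted p from it. With the replicate number as a block the calls of MLT1D_dup1870, MLT1H_dup546, MLT1D_dup4869 and MLT1F1_dup898 were lost, and MLT1D_dup3363 did not pass the filter there.

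The calls were also counted by reads per copy. Of the 20 copies called lower, 11 had under 20 reads, the fewest being 5. Among copies with 5 to 19 reads 11 of 72 were called lower, with a median log2 fold change of -1.08, among those with 20 to 49 reads 4 of 44 (-0.14), and among those with 50 or more reads 5 of 29 (0.05). These were 15.3%, 9.09% and 17.2% of the MLT1 copies, against 9.51%, 10.7% and 14.1% called lower over all TE copies in the same ranges, whose medians were -0.79, -0.81 and -0.51. With copies passing the filter through either group, these medians are a description of the kept copies.

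By letter, 7 of the 14 lettered groups with copies tested held a copy called lower, and MLT1C, MLT1E, MLT1G, MLT1I, MLT1J, MLT1K and MLT1L held 0. In MLT1A to MLT1D 8 of 70 were called lower and 1 higher, with a median log2 fold change of -0.998, in MLT1E to MLT1I 9 of 45 lower and 2 higher (-0.38), in MLT1J to MLT1O 2 of 23 lower (0.04) and among internal parts 1 of 7 lower (-0.77). MLT1F had 5 of 17 copies lower and 15 of 17 fold changes below 0, MLT1D 4 of 18 lower and 15 below 0, and MLT1K 0 of 10 lower and 3 below 0. Calls and signs parted in MLT1H, with 4 of 15 lower and 8 below 0, and in MLT1C, with 0 of 11 lower and a median of -1.13. Over all features 14.6% were called lower and 40616 of 59207 were below 0. Each MLT1F copy called lower met the filter through CONTROL alone, as did 17 of the 20 copies called lower over all letters. In MLT1D, MLT1D_dup1870, MLT1D_dup4869 and MLT1D_dup3363 had 0 reads in TBP LOF and had to differ to pass. The counts by letter therefore describe copies chosen by the filter. MLT1F_dup514, the MLT1F copy with the most reads (111), had a log2 fold change of 0.14. Differences between the letters were not tested. Added together, MLT1A to MLT1D copies had 41.2, 109 and 208 normalized counts in the lowest, median and highest TBP LOF embryo and 139, 186 and 231 in CONTROL, and MLT1E to MLT1I copies had 52.2, 144 and 198 against 74.6, 128 and 180. The sum of MLT1E to MLT1I includes MLT1H1_dup761 and MLT1E2_dup671, the pair with the most reads.

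Set beside other MaLR copies under the same filter, MLT1 lay between the ORR1 and MT families. Of ORR1A0 and ORR1A1 copies 31.2% of 1794 were called lower, with a median log2 fold change of -1.82, of ORR1A2 to ORR1A4 27.7% of 1077 (-1.68) and of ORR1B to ORR1G 16.5% of 624 (-1.26). Of MTA copies 0.42% of 4757 were called lower (0.29) and of MTB to MTE copies 5.33% of 1256 (0.06). The filter kept 22.1% of the annotated ORR1A0 and ORR1A1 copies and 24.7% of MTA copies, against 0.169% of MLT1. Old repeats of other classes that passed the filter gave 18.5% of 151 L2 copies (-0.90) and 14.6% of 205 MIR copies (-0.98) lower. The MLT1 share was 13.8%, near the 11.6% of all TE copies tested, whose median was -0.69. The MLT1 median of -0.52 lay above those of L2 and MIR. These differences were not tested. The groups differ in reads per copy, with medians of 20 for MLT1, 50 for ORR1A0 and ORR1A1 and 18 for L2, and the part of depth in the shares was not tested.

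**Figure D4:**
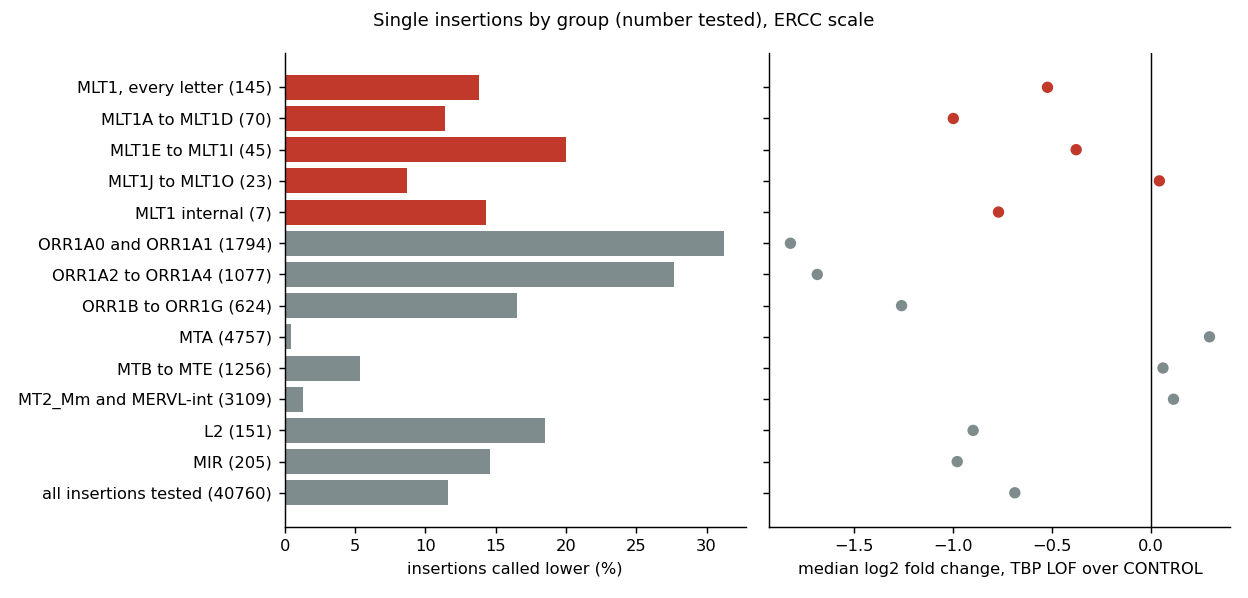
Percentage of single insertions called lower in TBP LOF (left) and median log2 fold change, TBP LOF over CONTROL (right), with the number tested in brackets. Red marks MLT1 insertions together, by range of letters (A to D, E to I, J to O) and as internal parts, and grey other groups of insertions. MLT1 insertions lie at 13.8% and -0.52, between the ORR1 and MT groups, and all insertions tested lie at 11.6% and -0.69.

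Whole families, counted over all their copies, were tested in a second table of 19356 genes and TE families. Of 42 MLT1 families tested 10 were called lower and 0 higher, and the background was 29.7% of genes and TE families lower and 1.34% higher. At most 1343 of the 19356 features can be TE families, so this background is mainly one of genes. In the fit of single copies 21.0% of genes and 11.6% of TE copies were called lower. The share over TE families alone was not worked out here. At an unadjusted p under 0.05 there were 14 families (33.3%), against 39.2% of all features. The median log2 fold change was -0.71 over the MLT1 families and -0.72 over all features of the table, and 37 of 42 were below 0. By TMM scaling the median of all features moved to 0.11, that of MLT1 to 0.10, and the calls turned to 0 lower and 4 higher (MLT1E2, MLT1E, MLT1H1 and MLT1J1-int). Of all features 12.7% were then lower and 12.8% higher, against 0% and 9.52% of the MLT1 families. The most-read copy held 75.8%, 59.1%, 66.8% and 100% of the reads of MLT1E2, MLT1E, MLT1H1 and MLT1J1-int, and MLT1J1-int had 15 reads in all. The 10 families called lower by ERCC stayed below 0 by TMM, at log2 fold changes of -1.92 to -0.11, and of the 4 called higher MLT1E2, MLT1E and MLT1J1-int were above 0 by ERCC as well, with MLT1H1 at -0.07. By DESeq2 11 of the 38 families with an adjusted p were lower (28.9%) and 0 higher, against 34.8% and 1.21% of all features. Without TBP LOF embryos 7 and 11, 2 of 43 families were called lower (4.65%) and 1 higher (2.33%), against 24% and 2.08% of all features, and the difference was not tested.

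The 5 MLT1 families with the most reads were MLT1B, MLT1D, MLT1C, MLT1H1 and MLT1A1. MLT1B had 29.5 normalized counts in the lowest, 84.5 in the median and 146 in the highest TBP LOF embryo and 83.1, 149 and 175 in CONTROL (log2 fold change -0.57 ± 0.30, adjusted p = 0.157). All 9 TBP LOF embryos were under the median of CONTROL, within overlapping ranges. MLT1D had 15.2, 59.3 and 82.8 in TBP LOF and 81.1, 111 and 160 in CONTROL (-1.10 ± 0.32, adjusted p = 0.00521). Its groups met at their edges, the highest TBP LOF embryo at 82.8 and the lowest CONTROL embryo at 81.1. MLT1A1 was lower (-1.02 ± 0.35, adjusted p = 0.0181), and MLT1C and MLT1H1 had -0.62 ± 0.34 and -0.07 ± 0.34 (adjusted p = 0.167 and 0.913).

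In several families a single copy carried the family value. The most-read copy held over 50% of the reads in 5 of the 26 families with at least 100 reads. MLT1O had 0.614 to 12.1 normalized counts in TBP LOF (median 3.67) and 1.43 to 59.4 in CONTROL (median 20.2), with the log2 fold change at -2.22 ± 0.55 (adjusted p = 0.00105), and MLT1O_dup206 held 65.3% of its reads. Without that copy the log2 fold change was -0.66 (adjusted p = 0.528). MLT1N2 went from -1.64 to 0.06 without MLT1N2_dup658, which held 55.0% of its reads (adjusted p = 0.0239 and 0.965).

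The same held in the other direction. MLT1E2 as a family had its log2 fold change at 0.71 ± 0.35 (adjusted p = 0.129), and -0.94 (adjusted p = 0.14) without MLT1E2_dup671, which held 75.8% of its reads. MLT1H1 went from -0.07 to -0.70 (adjusted p = 0.194) without MLT1H1_dup761, with 66.8% of its reads. In MLT1A and MLT1F the rest of the family lay lower than the whole, with -1.05 and -1.08 for the families and -1.48 and -1.65 without the most-read copy (adjusted p = 0.00271 and 0.00214). Of the 10 families called lower, 4 were called without their most-read copy (MLT1D, MLT1A, MLT1F and MLT1F1). With that copy kept, these were called in 18, 17, 12 and 7 of the 18 fits without 1 embryo. MLT1G and MLT1A1 narrowly lost their call without the most-read copy, at log2 fold changes of -1.87 and -0.87 (adjusted p = 0.0522 and 0.0538).

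In the FOXJ3 experiment, where families and not single copies were analysed here, 16 FOXJ3 LOF and 13 CONTROL embryos with 1103569 to 3430110 counted reads were compared by TMM scaling with library batch as a covariate. Of 42 MLT1 families tested 0 were called by edgeR, against a background of 0.0102% of 19517 features. An unadjusted p under 0.05 was found for 3 of the 42, against 1115 of the 19517 features. DESeq2 called 0 as well. The median log2 fold change of the families was -0.10 and the smallest adjusted p was 0.798, for MLT1H1 (-0.54 ± 0.21). MLT1H1 had 30.0, 39.3 and 79.3 normalized counts in the lowest, median and highest FOXJ3 LOF embryo and 21.5, 61.5 and 127 in CONTROL, with overlapping ranges. MLT1D had its log2 fold change at -0.15 ± 0.15 (adjusted p = 0.953) and MLT1O 0.07 ± 0.47 (adjusted p = 0.994). The experiments differ in antibody, scaling and batches, and the difference between them was not tested.

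**Figure D5:**
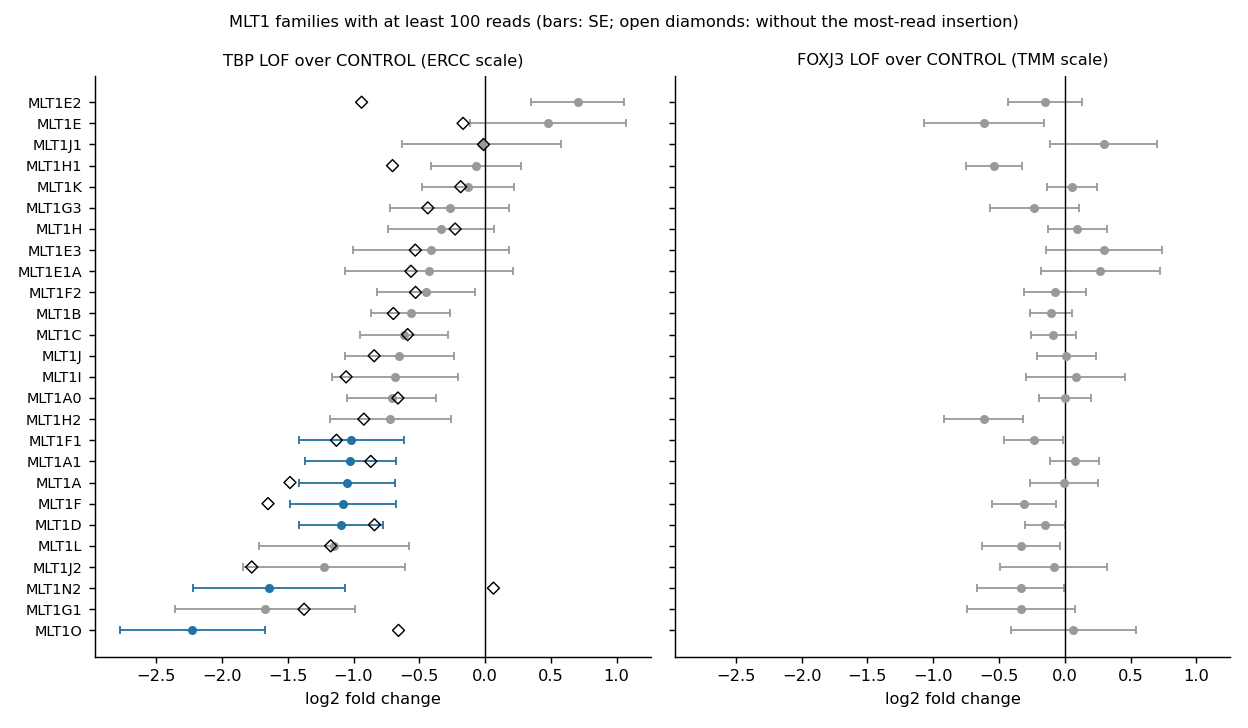
Log2 fold change of the 26 MLT1 families with at least 100 reads in the TBP experiment (left, ERCC scale) and the FOXJ3 experiment (right, TMM scale), with bars of 1 SE. Blue marks an adjusted p under 0.05, and open diamonds give the TBP value without the family's most-read insertion. MLT1O and MLT1N2 move from -2.22 and -1.64 to -0.66 and 0.06, and MLT1E2 from 0.71 to -0.94.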

How the data were processed

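Per the study's methods, the authors sorted 5' end reads from internal fragments, mapped them with STAR 2.7.11a to GRCm38 and ran TEcount for genes, ERCC spike-ins and TE families, and TElocal for genes and single copies. The deposited values are estimated counts (expected counts) without normalization. They were whole numbers, so rounding changed nothing. How reads of near-identical copies were shared, and whether strand was used, is not given in the sources read, and either could move reads between copies or between a copy and an overlapping gene.

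Embryos with at least 500000 counted reads were kept (18 in the TBP experiment, 29 in the FOXJ3 experiment), and 42 subfamily rows were added to their families, leaving 1343. Features with a read in at least 25% of embryos were tested with edgeR 4.0.16 (quasi-likelihood, two-sided), single copies together with genes and families together with genes, scaled by 42 ERCC transcripts (TBP) or by TMM with batch (FOXJ3), with Benjamini-Hochberg adjustment over all features. SE were derived from the F statistic, and size factors had a geometric mean of 1. The extraction protocol in the labels speaks of 3 biological replicates of TBP embryos without saying which embryo belongs to which, so no term for them was fitted. Reads carry no molecular identifiers, so counting error understates the noise. The alternatives were TMM, DESeq2 1.42.0, edgeR's filterByExpr, no filter, 19 embryos, leaving out each embryo, and the replicate number as a block.

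Named copies are the 12 with the highest mean normalized counts, the 10 called lower and up to 6 called higher with the smallest adjusted p, and named families the 5 with the most reads and the 5 called with the smallest adjusted p. The members, lists and rules were chosen with earlier results of these data known. MLT1F, MLT1F1, MLT1G, MLT1E2, MLT1E and MLT1J1-int as families, the copy MLT1A_dup388 and the marker genes were chosen after the data were seen. So were the fits without the most-read copy and without TBP LOF embryos 7 and 11. Figures were drawn with matplotlib 3.10.9, and R 4.3.3, pandas 2.3.3, Python 3.11.15 and numpy 2.4.6 were used.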

Additional observations from a re-analysis of the deposited data

Results flagged for a closer look

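In the named copies 10 of 40 sets of 9 embryos held an embryo whose gap to its nearest neighbour exceeded Dixon's critical value as a share of the range of the set, which chance gives in about 1 in 20 sets for values without skew, and counts near 0 are skewed. In TBP LOF these were MLT1B_dup8002, where embryo 7 was low at 5.53 normalized counts next to 17.1 (gap 0.504 of the range), MLT1B_dup899 with embryo 10 at 18.0 next to 9.42 (0.52), MLT1B_dup3093 with embryo 8 at 23.8 next to 5.81 (0.756) and MLT1G3_dup701 with embryo 8 at 12.7 next to 4.83 (0.62). In CONTROL they were MLT1A1_dup4147 with embryo 10 at 34.9 next to 11.8 (0.698), MLT1B_dup6315 with embryo 2 at 20.3 next to 8.31 (0.682) and MLT1F1_dup898 with embryo 3 at 3.61 next to 1.70 (0.53). In MLT1N2_dup658 and MLT1A1_dup100 of TBP LOF and MLT1D_dup8329 of CONTROL a single embryo held every read of the group, so the gap was the whole range (1).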

How the results depend on the processing

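The 20 copies called lower became 11 by TMM and 11 by DESeq2 (7.59% of 145 and 12.9% of 85, against 6.76% and 19.2% of all features), 0 of the 3 copies left by filterByExpr (37.7% of all features), 40 of 3371 without a filter (1.19% against 3.80%, 15 of the 20 among them) and 6 without TBP LOF embryos 7 and 11. The 3 called higher became 1 by DESeq2 and 1 by filterByExpr (1.18% and 33.3%, against 0.704% and 1.35% of all features). Without 1 embryo at a time, 12 to 23 copies were lower and 1 to 4 higher. Without CONTROL embryo 2, 3, 4 and 10, 13, 12, 12 and 13 were lower. These were 10.7%, 9.16%, 9.30% and 10.4%, against 13.7%, 12.9%, 12.8% and 13.4% of all features. The 23 came without CONTROL embryo 9 (17.3% against 15.8%). The 4 higher came without CONTROL embryo 2 (3.28% against 0.869%). Without TBP LOF embryo 6 or 9, 1 was higher (0.746% and 0.763%, against 0.715% and 0.542%). The median log2 fold change of -0.52 became 0.22 by TMM and 0.30 in the 3 copies of filterByExpr. Without a filter it was -1.02 over 3371 copies and -0.51 over the 145, against -1.11 for all features. It ran from -0.86 to -0.20 without 1 embryo. These ends were without TBP LOF embryo 8 and CONTROL embryo 2, where all features had -0.79 and -0.61. The log2 ratio of summed levels, -0.34, became 0.34 by TMM, 0.22 as a share of reads and -0.46 to -0.23 without 1 embryo. The 10 families called became 4 by TMM, each higher. By filterByExpr 5 of 17 were lower (29.4% against 52.5% of all features), and without the most-read copy 5 of 42 (11.9% against 29.7%). Without TBP LOF embryos 7 and 11, 3 were called. Without 1 embryo 5 to 11 were lower, with 6, 5, 5 and 6 without TBP LOF embryo 1, 7 and 11 and CONTROL embryo 6. These were 14.3%, 12.2%, 11.9% and 14.3%, against 29.2%, 27.4%, 27.6% and 27.8% of all features. The 0 families called for FOXJ3 remained 0 in the 4 alternatives run. The cause of these moves was not tested.

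With the replicate number as a block, in the 7 numbers that both groups share, 4 of 155 copies were lower (2.58%, against 6.37% of all features) and 0 higher, and 2 families were called (4.76% against 23.6% lower). The same embryos without the block gave 4, 0 and 1 (5.97% and 23.0% of all features lower). The median over the 133 of the 145 copies in these fits was -0.017 with the block and -0.27 without it, and over the 155 copies -0.22 and -0.27, against -0.39 and -0.37 for all features. Embryos with the same number were little alike: the correlation of deviations lay between -0.02 and 0.10 in 7 pairs (1 embryo best with its own number). In the FOXJ3 experiment 3 of 12 pairs exceeded 0.1, and 3 embryos were best with their own number. So few pairs cannot show whether a shared number marks a shared collection.

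Of the named copies, those whose sign turned were never called. MLT1B_dup8002 (0.01) took -0.000394 by DESeq2, -0.012 with the replicate block, -0.093 in the paired embryos without it, and -0.11 to 0.16 without 1 embryo. MLT1H1_dup622 (0.05) took -0.16 with 19 embryos and -0.19 to 0.24 without 1. MLT1K_dup698 (0.09) took -0.054 with 19 embryos, -0.40 with the block and -0.45 to 0.46 without 1. MLT1F_dup514 (0.14) took -0.027 to 0.46 without 1 embryo, and MLT1B_dup6315 (-0.32) took 0.24 by TMM, 0.086 with the block and -0.69 to 0.13 without 1. Copies had 20 reads at the median, and which differences this depth could show was not tested.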
